A study of Mus musculus with 19 samples.

Results

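The comparison described here is that of APP control with WT control in the CA1 region of the hippocampus, and its members are the genes that reached 5 counts in 50% or more of the 12 libraries concerned. There were 19356 such genes among the 48709 in each count file, and the 12 libraries were part of a series of 19. APP control (n = 6) were APPPS1-21 mice and WT control (n = 6) were their littermates without the transgenes. All were 7 months old, and both groups had received lipid nanoparticles loaded with a control oligonucleotide by injection into the dorsal hippocampus. The titles of the WT libraries also name the anti-miR-mix beside the word control, and the study's description of these animals as given the control oligonucleotide was followed. The inhibitor control listed by the study, which is shown because every animal compared here carries it and not as a finding, reads 5′ to 3′ as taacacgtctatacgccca.

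APPPS1-21 mice express human APP with the Swedish mutation together with another mutant human transgene. Both transgenes are driven by the Thy1 promoter, which is active in neurons, so amyloid is made by neurons and other cell types meet it from outside. In amyloid-bearing tissue microglia gather at plaques, lower or keep their resting genes and turn on a plaque-associated set for which the receptor TREM2 and its signalling partner TYROBP are needed. Astrocytes near plaques raise the filament protein GFAP, and neurons change the genes that follow synaptic activity. RNA was taken from whole microdissected tissue. Fewer or more cells of a type and a lower or higher level per cell therefore cannot be told apart in anything that follows.

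Libraries held between 19362343 and 35058913 counts. Values below are normalized counts, that is read counts divided by the DESeq2 size factor of the library, and a gene was called when its Benjamini-Hochberg adjusted p in the DESeq2 Wald test over all genes tested was under 0.05. A positive log2 fold change means higher in APP control. The transgene labels were examined with mouse genes whose sequence the transgenes share. Thy1, a surface glycoprotein of neurons whose regulatory sequence the transgenes use, had 19089, 20026, 19282, 19893, 17476 and 18652 normalized counts in WT control 1 to 6 and 60567, 56230, 50057, 56554, 43530 and 34680 in APP control 1 to 6. The groups did not overlap, and APP control 5 and 6 were the lowest of their group (log2 fold change 1.40, SE 0.12, DESeq2 adjusted p = 2.02e-28). App, the amyloid precursor, ranged from 47257 to 52956 normalized counts in WT control (median 49116) and from 64480 to 77799 in APP control (median 69238). App was called (0.50 on the log2 scale), its groups did not overlap, and reads of human and mouse transcripts were not separated. Every library had Y-linked reads and little Xist (5.79 to 17.6 normalized counts), so sex did not divide the groups. CA1 pyramidal markers were present in every library, with summed counts of 37930 to 55331 in WT control and 33227 to 47506 in APP control.

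Of the 19356 genes, 746 were called, or 3.85%. Higher in APP control were 586 genes (3.03% of those tested) and lower were 160 (0.827%). The groups did not overlap at all in 222 genes that were higher (1.15%) and 74 that were lower (0.382%), of which 201 and 53 were also called. The sizes differed between the directions. The higher genes had a median log2 fold change of 0.79, with 200 at 1 or above and 20 at 2 or above. The lower genes had a median of -0.28, none at -1 or below, and 139 of them lay above -0.5. Their median level differed as well, being 253 normalized counts for higher genes, 1670 for lower genes and 357 for all genes tested. Together the higher genes took 1.4 to 1.88% of the counts of a WT control library and 2.04 to 3.16% of an APP control library, and the lower genes took 1.92 to 2.06% and 1.67 to 1.81%. The median of all genes lay at -0.01.

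The edgeR quasi-likelihood test called fewer genes, 407 higher (2.1%) and 39 lower (0.201%). Of the 586 higher genes it called 406, and of the 160 lower genes it called 39, so that 91.3% of its calls were higher against 78.6% with DESeq2. The edgeR result is given below beside lower genes that it did not call. In the normalized table that the authors deposited, every library had been adjusted by a whole number from 1 to 5 whose meaning was not given in the sources used here. With that number as a factor 525 genes were called, 449 of them among the 746. Of the 5 numbers, 4 were found in both groups. Within a single number, 666 to 745 of the 746 called genes had the direction of the whole comparison, and 619 had it in all 4. The genes had been called from these same libraries, so this agreement is no independent check. The share over all genes tested was not computed.

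**Figure D1:**
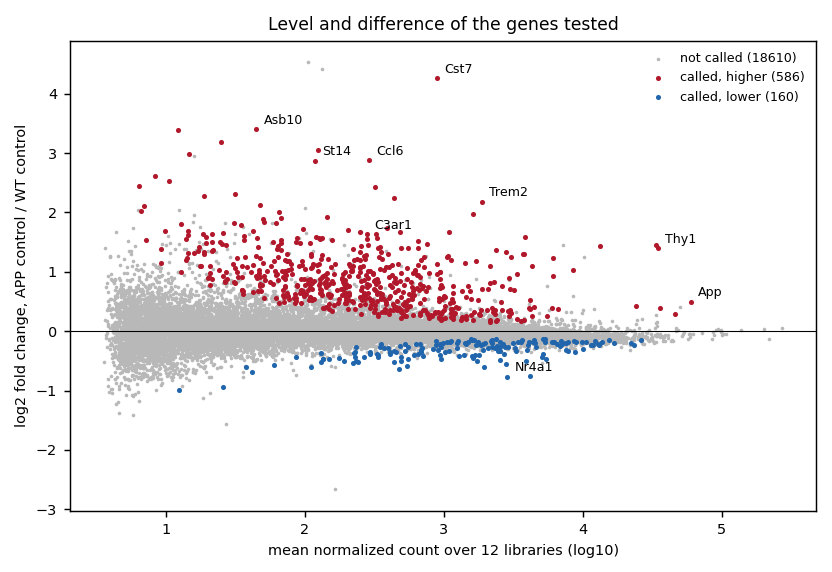
Each point is a gene tested, with its mean normalized count over the 12 libraries (log10, horizontal) and its log2 fold change of APP control over WT control (vertical), red where called higher (586), blue where called lower (160) and grey where not called. Called higher genes reach a log2 fold change of 4.26 (Cst7), whereas none of the called lower genes reaches -1.

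The libraries within a group did not stand equally far from the other group. Of the 586 higher genes, 267 (45.6%) had their lowest APP control value in APP control 6 and 222 (37.9%) in APP control 5, against 25.9% and 19.1% of all genes tested. In WT control 1, 343 (58.5%) had their highest WT control value, against 18% of all genes tested. APP control 5 and 6 were also the lowest of their group in Thy1, as given above. Without APP control 5 and 6 the comparison called 1150 genes, and without WT control 1 and 5 it called 1015, of which 652 and 657 were among the 746. The first of these alternatives was chosen after the data had been seen.

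Among cell types, the lists with the largest share of called genes were microglial. Of 15 homeostatic microglia genes 10 rose and none fell (median log2 fold change 0.82), against 3.03% called higher over all genes. Csf1r, the receptor that microglia need to survive, ranged from 3573 to 5153 normalized counts in WT control (median 3980) and from 5235 to 9986 in APP control (median 8875), and the groups did not overlap (log2 fold change 0.92, SE 0.17, DESeq2 adjusted p = 8.36e-06). Cx3cr1, the fractalkine receptor, had a log2 fold change of 0.89 (adjusted p = 0.00067), but in it APP control 5 lay within the WT range. The purinergic receptor P2ry13 was called (0.82). P2ry12 and Tmem119, the most used of the resting markers, had smaller values that did not pass (0.41, adjusted p = 0.355, and 0.51, adjusted p = 0.102). Gpr165 was the 1 member with a negative value (-0.19, not called). Csf1r was the 1 member whose groups did not overlap, where 1.15% of all genes tested were higher without overlap. The summed level of the list was 13603 to 20004 in WT control and 16766 to 37851 in APP control. APP control 5 (16766) lay below WT control 1 and 5 (19059 and 20004). The homeostatic count was sensitive to the method, with 6 called higher by edgeR, 6 without APP control 2 or without APP control 4, and between 2 and 13 over all alternatives.

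Of 29 plaque-associated microglia genes 20 rose and none fell, all 29 values were positive, and the median was 0.76. Of these edgeR called 14, and between 12 and 23 were called higher over all alternatives. In 9 members the groups did not overlap, where 1.15% of all genes tested were higher without overlap. The summed level of the list was 79553 to 120739 in WT control and 107738 to 200267 in APP control. APP control 5 and 6 (107738 and 109708) lay below WT control 1 (120739). Cst7 (chr2:150570415-150578944), which encodes the cysteine protease inhibitor cystatin F, had 148, 26.3, 33.5, 53, 242 and 28.7 normalized counts in WT control 1 to 6 and 1847, 2888, 1888, 2598, 326 and 630 in APP control 1 to 6. Here APP control 5 (326) stood close to WT control 5 (242), while the other libraries were further apart (log2 fold change 4.26, SE 0.69, DESeq2 adjusted p = 1.92e-07). The integrin Itgax ranged from 30.9 to 228 normalized counts in WT control (median 88.7) and from 92.1 to 896 in APP control (median 576), with APP control 5 inside the WT range (log2 fold change 2.43, SE 0.57, DESeq2 adjusted p = 0.00125). Clec7a, the beta-glucan receptor dectin-1, ranged from 73 to 295 normalized counts in WT control (median 117) and from 309 to 1058 in APP control (median 770), and the groups did not overlap (log2 fold change 2.24, SE 0.42, DESeq2 adjusted p = 1.55e-05). Smaller differences were called for Ch25h (1.91), the enzyme that makes 25-hydroxycholesterol, for Cd68 (1.67), a lysosomal glycoprotein of phagocytes, and for the protease Ctsl (0.70). Among the 9 members not called were Apoe (0.40, adjusted p = 0.0846), the main lipoprotein of the brain, Lyz2 (0.88, 0.253) and Spp1 (0.54, 0.777), which encodes osteopontin. Spp1 ranged from 204 to 1121 in WT control and 283 to 1443 in APP control, so that the ranges lay within each other for the most part.

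Markers of other myeloid and blood cells gave few calls, though most values were positive. Of 10 genes of border macrophages and monocytes 2 rose, Pf4 (1.55) and the haemoglobin scavenger receptor Cd163 (1.23), and neither was called by edgeR (adjusted p = 0.126 and 0.149). In this list 8 values were positive and the median was 0.55. The count of 2 became 1 or 0 without any 1 of WT control 1, 2, 4, 5 and 6 and APP control 2, 3, 5 and 6. Pf4 and Cd163 both had their highest value in APP control 5 (49.7 and 97.5 normalized counts). The summed level of this list was 620 to 976 in WT control and 731 to 1464 in APP control. Of 7 neutrophil and erythrocyte genes none was called, although all 7 values were positive, with a median of 0.83. Their summed level was 532 to 950 in WT control, 5250 in APP control 5, 1558 in APP control 6 and 934 or less in the other APP control libraries. APP control 5 held 1468 normalized counts of S100a9 and 1166 of S100a8, calcium-binding proteins of neutrophils, against at most 33.9 and 22.3 in WT control. Of 9 lymphocyte genes none was called. Their summed level was 71.4 to 331 in WT control and 70.9 to 211 in APP control. The part of blood and border cells in the microglial results was not tested.

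Astrocyte genes separated by kind. None of the 13 general astrocyte genes was called by either test (median 0.05, summed level 203678 to 246709 in WT control and 207894 to 233157 in APP control), whereas 7 of 24 reactive astrocyte genes rose and none fell, and edgeR also called 7. The glutamate transporter Slc1a2 ranged from 94448 to 118650 normalized counts in WT control (median 99809) and from 83506 to 108635 in APP control (median 97637). Gfap, the intermediate filament of astrocytes, ranged from 13676 to 25662 normalized counts in WT control (median 15974) and from 27993 to 71178 in APP control (median 53072), without overlap (log2 fold change 1.45, SE 0.24, DESeq2 adjusted p = 3.91e-07), and APP control 5 and 6 (27993 and 28307) stood just above WT control 5 (25662). Aspg, an asparaginase, ranged from 95 to 237 normalized counts in WT control (median 136) and from 264 to 666 in APP control (median 510), also without overlap (log2 fold change 1.64, SE 0.25, DESeq2 adjusted p = 3.2e-08). Osmr, the oncostatin M receptor, and the transcription factor Stat3, which acts below it, were called too, Osmr with a log2 fold change of 0.98. Srgn, a proteoglycan core protein that leukocytes share, was called at 1.10 and C4b, a complement component, at 1.02. Serpina3n (0.46, adjusted p = 0.588) and Vim (0.33, 0.663) were not called, and in both WT control 1 was the highest library of its group.

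Other cell types gave few or no calls. None of 13 oligodendrocyte and myelin genes and none of 10 precursor genes was called by either test (medians -0.02 and -0.06). The summed level of the 13 endothelial genes was 7247 to 8515 in WT control, 7984 to 9368 in APP control 1, 2, 3, 4 and 6, and 15866 in APP control 5. All 13 had positive values and 1 was called, the VEGF receptor Flt1, which ranged from 943 to 1143 normalized counts in WT control (median 1055) and from 1218 to 1493 in APP control (median 1272), with a log2 fold change of 0.30 (SE 0.07, DESeq2 adjusted p = 0.00039). Without WT control 5, 3 endothelial genes were called, and without any 1 of APP control 1, 4 and 6, 2 were. Of 9 pericyte and smooth muscle genes 1 was called, the smooth muscle myosin Myh11 (0.61, edgeR adjusted p = 0.114), and none was without any 1 of WT control 1, 3, 5 and 6 and APP control 3 and 5, while 2 were without APP control 4. No gene of the lists for fibroblasts and meninges (9), choroid plexus (6) and ependyma (6) was called. Neighbouring regions were examined because a dissection can differ between animals. None of 8 CA1, 4 CA3, 6 dentate, 6 cortical and 6 striatal genes was called. All 4 CA3 genes were positive (median 0.28), as were 5 of the 6 dentate genes (median 0.18). Prkcd, a protein kinase C that marks thalamus but is not restricted to it, was the 1 thalamic list member called (0.62), while the other 3 were not. All 8 CA1 genes were negative, with a median of -0.12.

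**Figure D2:**
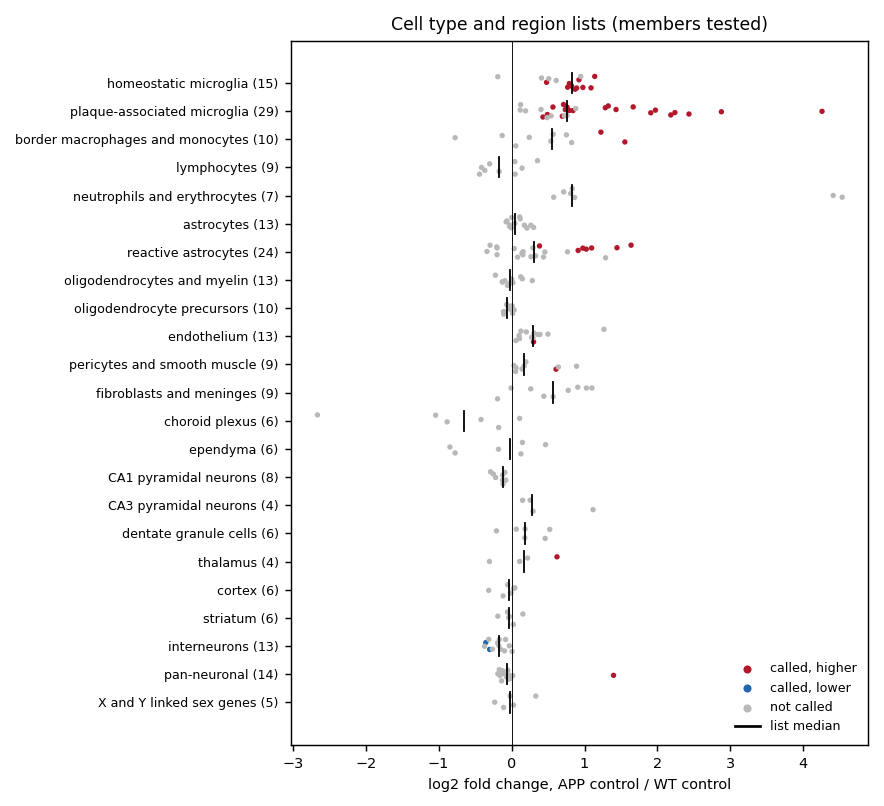
Each point is a list member tested, placed at its log2 fold change of APP control over WT control (horizontal), red where called higher, blue where called lower and grey where not called, with the list median as a black bar and the number of members tested in brackets. The 2 microglial lists and the reactive astrocyte list hold most of the red points, and the general astrocyte and oligodendrocyte lists hold none.

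Genes of the signalling chain behind TREM2 rose together. All 15 genes of the list were called higher with DESeq2 and 12 did with edgeR (median 1.00), and over all alternatives between 11 and 15 were called. At the receptor, Trem2 (chr17:48346401-48354147) had 870, 575, 578, 587, 976 and 454 normalized counts in WT control 1 to 6 and 3428, 4712, 3376, 4276, 1146 and 1412 in APP control 1 to 6. APP control 5 and 6 lay above every WT control library but closer to them than to the other 4 (log2 fold change 2.18, SE 0.36, DESeq2 adjusted p = 5.92e-07). Tyrobp, the adaptor that carries its signal, ranged from 432 to 971 normalized counts in WT control (median 563) and from 1012 to 4104 in APP control (median 2882), and the groups did not overlap (log2 fold change 1.97, SE 0.37, DESeq2 adjusted p = 1.35e-05). Below it, the tyrosine kinase Syk had the smallest values of those named (0.44, edgeR adjusted p = 0.0961), and the exchange factor Vav1 followed at 0.85. The phosphatase Inpp5d, which opposes the phosphoinositide kinases, had the smallest p of the list and ranged from 496 to 717 normalized counts in WT control (median 598) and from 804 to 1492 in APP control (median 1236), with a log2 fold change of 0.97 (SE 0.15, DESeq2 adjusted p = 3.85e-08). The catalytic subunit Pik3cg (1.09), the phospholipase Plcg2 (0.89) and Nckap1l, a part of the WAVE actin complex of blood cells (1.00), were called as well. Spi1, which encodes the myeloid transcription factor PU.1, ranged from 86.1 to 184 normalized counts in WT control (median 140) and from 187 to 368 in APP control (median 306) without overlap (log2 fold change 1.01, SE 0.20, DESeq2 adjusted p = 4.8e-05).

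Promoters are shown for genes of this kind because PU.1 was itself among the called genes. RefSeq promoter windows on GRCm38.p6, from 250 bases before to 50 after a start, were found for 450 of the 586 higher genes and 117 of the 160 lower genes. The letters GAGGAAGT, a form of the PU.1 site, occurred on either strand in 8.51% of the 576 windows of higher genes, 1.88% of the 160 windows of lower genes, 2.89% of the windows of all genes tested and 3.2% of the 32851 windows of all genes. In the TREM2 list 4 of 12 windows held them, those of Inpp5d, Pik3cg and Vav1. The microglial lists did not share this, with none of 12 homeostatic windows and 1 of 28 plaque-associated windows (3.57%). That 1 window was of Spp1, which was not called. The lysosomal list had 4 of 27 and the complement list 1 of 10. These are matches of letters and not measured binding. Below, each window reads 5′ to 3′ along its gene, with the matched letters in capitals, where ACTTCCTC is the same site on the other strand.
Inpp5d (chr1:87620062-87620361, plus strand): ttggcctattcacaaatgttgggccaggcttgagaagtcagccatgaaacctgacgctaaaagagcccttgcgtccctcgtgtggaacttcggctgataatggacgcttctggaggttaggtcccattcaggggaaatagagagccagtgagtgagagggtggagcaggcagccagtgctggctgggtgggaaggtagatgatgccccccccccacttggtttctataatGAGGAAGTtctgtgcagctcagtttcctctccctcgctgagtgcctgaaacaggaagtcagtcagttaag
Vav1 (chr17:57278850-57279149, plus strand): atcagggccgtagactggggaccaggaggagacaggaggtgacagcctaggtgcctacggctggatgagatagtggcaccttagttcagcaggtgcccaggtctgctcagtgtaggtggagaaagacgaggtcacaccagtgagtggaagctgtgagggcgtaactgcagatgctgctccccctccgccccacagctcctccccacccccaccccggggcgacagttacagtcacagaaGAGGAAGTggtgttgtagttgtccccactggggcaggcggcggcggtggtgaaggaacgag
Ctss (chr3:95526536-95526835, plus strand): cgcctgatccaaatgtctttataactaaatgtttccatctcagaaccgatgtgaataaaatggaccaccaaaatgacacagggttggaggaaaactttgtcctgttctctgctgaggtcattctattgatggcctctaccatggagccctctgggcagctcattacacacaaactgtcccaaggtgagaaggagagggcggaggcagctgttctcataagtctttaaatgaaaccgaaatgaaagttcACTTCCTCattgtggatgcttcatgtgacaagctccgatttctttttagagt

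Receptors for antibody and debris followed. Of 14 Fc and phagocytic receptor genes 8 rose and none fell. Fcgr3, a low-affinity IgG receptor, ranged from 330 to 554 normalized counts in WT control (median 370) and from 633 to 1405 in APP control (median 1145), without overlap (log2 fold change 1.46, SE 0.18, DESeq2 adjusted p = 2.28e-12). Fcgr2b, the inhibitory IgG receptor, had a log2 fold change of 1.67, and Fcer1g, the chain that activating Fc receptors share, of 1.41. Cd14, a co-receptor for bacterial lipids, was higher in all 6 APP control libraries than in any WT control library (163 or more against 140 or less, log2 fold change 1.70). It also stands among the Toll-like receptors, where 9 of 17 genes rose and all 17 values were positive. In that list edgeR called 7 higher, and between 5 and 11 were called higher over all alternatives. In that family the endosomal receptor Tlr7 ranged from 93.4 to 162 normalized counts in WT control (median 112) and from 246 to 390 in APP control (median 334), with a log2 fold change of 1.39 (SE 0.16, DESeq2 adjusted p = 8.11e-14), and Tlr13 (1.12) and Tlr1 (1.25) were called without overlap. Related Fc receptor genes resemble each other in sequence, and reads of 50 bases that fit several of them may have been lost or divided.

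Of 16 complement genes 10 rose and none fell, with both tests (median 0.97). The strongest was C3ar1, the receptor for C3a, which ranged from 97.2 to 182 normalized counts in WT control (median 138) and from 297 to 527 in APP control (median 427), with a log2 fold change of 1.63 (SE 0.18, DESeq2 adjusted p = 5.92e-16). The C5a receptor C5ar1 ranged from 21.6 to 44.6 normalized counts in WT control (median 35.5) and from 65 to 138 in APP control (median 96.7), with its highest value in APP control 5. The recognition subunits were called, C1qa at 1.30 and C1qc at 1.26, though in both WT control 1 lay above the lowest APP control library by a small amount. C3 itself, the central component of the cascade, was not called (-0.20, adjusted p = 0.962), and it ranged from 639 to 3414 normalized counts in WT control (median 1377) and from 631 to 2683 in APP control (median 1303).

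Of 20 chemokines and cytokines 7 rose and 1 fell, and over all alternatives 3 to 8 were called higher and 0 or 1 lower. Ccl6 ranged from 35.3 to 115 normalized counts in WT control (median 64.8) and from 211 to 674 in APP control (median 601) and Ccl3 from 8.76 to 53.9 normalized counts in WT control (median 23.8) and from 57.8 to 360 in APP control (median 255). Neither overlapped between the groups, and the log2 fold changes were 2.88 (SE 0.36, DESeq2 adjusted p = 4.2e-12) and 3.04 (SE 0.52, 1.38e-06). Both draw leukocytes. Ccl4 (1.83), Tgfb1 (1.09), Csf1 (0.57) and Il1a (0.76, edgeR adjusted p = 0.0815) were also called. The classical inflammatory cytokines Il1b (0.02) and Tnf (0.06) were not called, and both stayed low, at no more than 56.9 and 21.5 normalized counts in any library. Cx3cl1, the neuronal ligand of the microglial receptor Cx3cr1, was the gene that fell (-0.20, DESeq2 adjusted p = 0.0265, edgeR 0.158), with APP control 1 inside the WT range, and its call was lost without any 1 of WT control 2, 3 and 4 and APP control 2 to 6.

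Antigen presentation and interferon genes gave few calls, and their counts depended on WT control 1. Of 17 antigen presentation genes 1 was called, the class II chaperone subunit H2-DMb1 (0.92), although 16 values were positive. That count was 10 without WT control 1, 2 without APP control 5 or without APP control 6, and 0 with limma voom. None of 18 interferon-stimulated genes was called by either test, with 17 values positive and a median of 0.32, and 4 were called higher without WT control 1. The antiviral gene Oasl2 had 1292, 418, 373, 932, 430 and 399 normalized counts in WT control 1 to 6 and 496, 1025, 666, 1074, 396 and 1383 in APP control 1 to 6. WT control 1 and 4 and APP control 2, 4 and 6 were high in it.

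The lysosomal list had the most called members of all pathway lists. Of 30 members 19 rose and none fell, 17 of them higher with edgeR as well, and between 15 and 23 were called higher over all alternatives. Gusb, which encodes beta-glucuronidase, ranged from 474 to 742 normalized counts in WT control (median 536) and from 782 to 1720 in APP control (median 1265), without overlap (log2 fold change 1.13, SE 0.18, DESeq2 adjusted p = 2.08e-07). Laptm5, a lysosomal membrane protein of blood cells, ranged from 1100 to 1684 normalized counts in WT control (median 1278) and from 1734 to 4896 in APP control (median 3775), with a log2 fold change of 1.37 (SE 0.22, DESeq2 adjusted p = 2.66e-07). The cathepsins Ctss (1.24), Ctsd (1.43) and Ctsb (0.43, edgeR adjusted p = 0.0893) were called, as was progranulin, Grn (0.96). Ctsd ranged from 5348 to 9694 in WT control and 8684 to 29361 in APP control, and APP control 5 (8684) stood below WT control 1 (9694). The proton pump that acidifies lysosomes did not follow. None of 18 vacuolar ATPase genes was called by either test, with a median of -0.07. The core of the CLEAR element, through which TFEB-type factors act on lysosomal genes, was searched as TCACGTGA, which reads the same on both strands. It occurred in 3 of 27 windows of the lysosomal list (11.1%), in 1.74% of the windows of higher genes, 1.56% of those of all genes tested and 0.974% of all windows. The window of Ctsd, with the match in capitals, is given as an example.
Ctsd (chr7:142387778-142388077, minus strand): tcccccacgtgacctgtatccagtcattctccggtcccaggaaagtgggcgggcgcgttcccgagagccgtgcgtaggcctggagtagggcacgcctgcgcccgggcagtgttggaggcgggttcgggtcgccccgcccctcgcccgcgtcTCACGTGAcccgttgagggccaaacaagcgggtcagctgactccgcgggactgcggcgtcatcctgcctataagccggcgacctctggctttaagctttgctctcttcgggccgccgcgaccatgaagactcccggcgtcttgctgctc

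Smaller metabolic groups were called in part. Of 16 genes of the NADPH oxidase and antioxidant list 6 rose, and those 6 were the oxidase itself and its activator Rac2, among them the cytosolic subunits Ncf1 (0.95) and Ncf4 (0.86) and the membrane subunit Cyba (1.09). None of the 10 antioxidant enzymes was called. Of 14 iron genes 3 rose, the phagosomal metal transporter Slc11a1 (1.57), heme oxygenase Hmox1 (0.60) and the ferritin heavy chain Fth1 (0.29), and edgeR called only Slc11a1 of them. A single call was also left without any 1 of WT control 2, 3, 5 and 6 and APP control 2 and 4. Slc11a1 ranged from 105 to 245 normalized counts in WT control (median 170) and from 268 to 646 in APP control (median 573), without overlap. Of 19 genes of lipid handling 3 rose, among them Ch25h and lipoprotein lipase Lpl (0.76, edgeR adjusted p = 0.143). That count became 6 without APP control 5 and 9 without APP control 5 and 6. Of 18 glycolysis genes 2 rose, both hexokinases, Hk2 (0.82) and Hk3 (0.79), and 1 rose without any 1 of WT control 2, 3, 5 and 6 and APP control 2 to 4.

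Sterol synthesis gave small positive values. Of 20 genes 4 rose (Sqle, Msmo1, Nsdhl and Fdft1, at 0.36, 0.29, 0.36 and 0.36) and 19 values were positive, with a median of 0.18. Sqle, squalene epoxidase, ranged from 1655 to 2014 normalized counts in WT control (median 1768) and from 1902 to 2468 in APP control (median 2401), with a log2 fold change of 0.36 (SE 0.08, DESeq2 adjusted p = 0.000189), and APP control 5 was the lowest of its group. The list count depended on the libraries. It was 12 without APP control 5 and 6, 8 without APP control 5, 7 without APP control 6, and 1 or 2 with limma voom, with edgeR, or without any 1 of WT control 1, 2, 4, 5 and 6 and APP control 1 to 4.

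Of 78 cytosolic ribosomal protein genes 13 rose and none fell, and 73 values were positive (median 0.17). Rps25 ranged from 668 to 890 normalized counts in WT control (median 759) and from 885 to 983 in APP control (median 959), with a log2 fold change of 0.30 (SE 0.07, DESeq2 adjusted p = 0.000621) and Rpl32 from 1433 to 1736 normalized counts in WT control (median 1612) and from 1690 to 2154 in APP control (median 1971), with a log2 fold change of 0.29 (SE 0.07, DESeq2 adjusted p = 0.00179). Each difference was small, and the groups of both genes overlapped. This count also moved with the libraries, from 6 without any 1 of WT control 6, APP control 2 and APP control 4 to 27 without APP control 6 and 33 without APP control 5 and 6. Ribosomal protein genes have many near-identical pseudogene copies, so their counts are uncertain. No gene was called among 82 nuclear genes of oxidative phosphorylation (median -0.01), 17 of the cell cycle (0.18) or 13 induced by glucocorticoids (0.14). The summed level of the glucocorticoid list was 26819 in APP control 5 and 16713 to 21274 in the other 11 libraries. Of 20 chaperones 1 was called (Sdf2l1, 0.50), and of 53 collagens and laminins 1 (Col5a3, 0.58). The chaperone call was lost without any 1 of WT control 6, APP control 2 and APP control 3. The collagen and laminin count was 3 without WT control 1 or APP control 6 and 0 without any 1 of WT control 2, 3 and 6 and APP control 2 and 4.

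**Figure D3:**
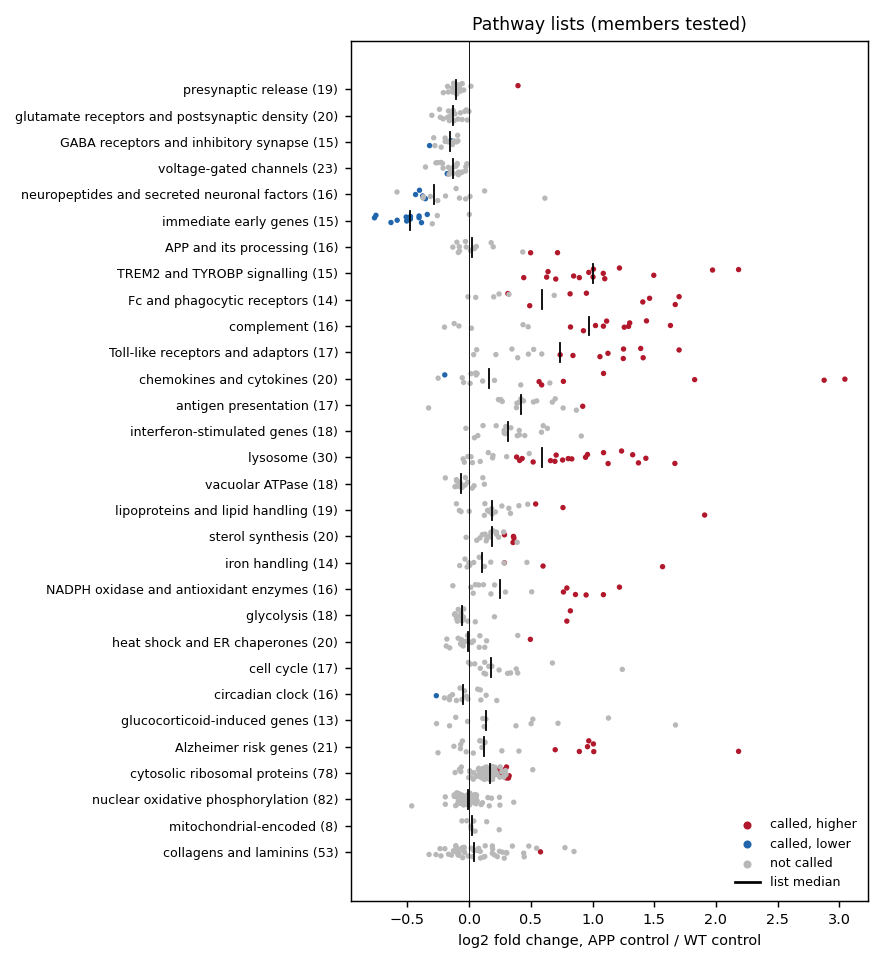
Each point is a pathway list member tested, placed at its log2 fold change of APP control over WT control (horizontal), red where called higher, blue where called lower and grey where not called, with the list median as a black bar and the number of members tested in brackets. All 15 TREM2 and TYROBP members are red, 12 of 15 immediate early genes are blue, and the glutamate receptor, GABA receptor and channel lists lie in a narrow band below 0.

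Of 21 genes near human Alzheimer disease risk loci 7 rose and none fell, with both tests: Inpp5d, Trem2, Grn, Plcg2, Spi1, Cd33 and Abi3. The other 14, which include Apoe as given above, were not called. Of 16 genes of APP and its processing 2 were called, App among them, and 14 were not.

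The lists leave out most of what was called, 453 of the 586 higher genes and 138 of the 160 lower genes. The smallest p among the higher genes on no list belonged to St14, which encodes the membrane serine protease matriptase. St14 had 42.5, 8.76, 18.4, 34.8, 37.5 and 26.5 normalized counts in WT control 1 to 6 and 217, 319, 221, 283, 120 and 89.6 in APP control 1 to 6, and the groups did not overlap (log2 fold change 2.87, SE 0.34, DESeq2 adjusted p = 8.11e-14). Plaur, the urokinase receptor, ranged from 13 to 33.1 normalized counts in WT control (median 22.9) and from 57.1 to 107 in APP control (median 73.7), with a log2 fold change of 1.83 (SE 0.23, DESeq2 adjusted p = 4.2e-12), and urokinase itself, Plau, was called at 1.10. Mrc2, a collagen-binding endocytic receptor, ranged from 143 to 253 normalized counts in WT control (median 175) and from 343 to 732 in APP control (median 444), with a log2 fold change of 1.41 (SE 0.18, DESeq2 adjusted p = 9.11e-12). Ctse, the endosomal protease cathepsin E, rose from at most 9.82 to at least 19.3 normalized counts (3.19), and Hpse, which cuts heparan sulfate, was called at 1.72. Asb10, an ankyrin repeat protein, had no more than 11.6 normalized counts in WT control and 27.1 to 140 in APP control (log2 fold change 3.40, SE 0.43, DESeq2 adjusted p = 4.2e-12). Pag1, an adaptor of Src kinases, ranged from 858 to 1014 normalized counts in WT control (median 923) and from 1266 to 1568 in APP control (median 1314), with a log2 fold change of 0.54 (SE 0.07, DESeq2 adjusted p = 1.11e-10).

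Several receptors stood among the genes on no list. By the rule for named genes these were Tgfbr2, a receptor of TGF-beta (1.27), the immune cell receptor Cd84 (1.54), the acid-sensing receptor Gpr65 (1.69) and Hcar2, the receptor for hydroxybutyrate and niacin. Hcar2 ranged from 11 to 56.7 normalized counts in WT control (median 23.2) and from 66.8 to 163 in APP control (median 85.2), without overlap (log2 fold change 2.00, SE 0.35, DESeq2 adjusted p = 2.3e-06). The genes named from here to the end of the next paragraph, other than Nlrp3, Anxa3 and Ang, were chosen after their values had been seen. Further receptors with a G protein were Gpr183 (1.56), which senses oxysterols of the kind that the Ch25h product feeds into, Gpr84 (1.28), a receptor of medium-chain fatty acids, Cmklr1 (1.02), the chemerin receptor, Cnr2 (1.61), the cannabinoid receptor of immune cells, and P2ry6 (0.78), a receptor for UDP. Inhibitory receptors were called, among them Vsir (1.19), Lair1 (1.03), Havcr2 (1.21) and Pdcd1, which encodes PD-1. Pdcd1 ranged from 7.30 to 37.8 normalized counts in WT control (median 15.1) and from 17.1 to 124 in APP control (median 85.5), and APP control 5 lay inside the WT range (log2 fold change 2.12, SE 0.44, DESeq2 adjusted p = 0.000109). Cytokine receptors called included Csf3r (1.52), Il1rl1 (1.36), Il1rl2 (1.10), Tnfrsf1a (0.84), Il4ra (0.72) and Il6ra (0.70), and the last 2 of these were highest in APP control 5. Osm, the cytokine that acts on the receptor Osmr named among astrocyte genes, was called from low counts (1.41; at most 15.7 in WT control and 21.6 or more in APP control).

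Transcription factors of blood cells were called beside Spi1. Irf8 ranged from 224 to 479 normalized counts in WT control (median 263) and from 463 to 1088 in APP control (median 920), with a log2 fold change of 1.40 (SE 0.24, DESeq2 adjusted p = 1.66e-06), and Irf5 (1.22) was the other of the 9 interferon regulatory factors tested that was called. Runx1 (1.12), Cebpa (0.88), Ikzf1 (0.86) and Lyl1 (0.85) were also higher. Outside that group, Mlxipl, a glucose-responsive factor also known as ChREBP, ranged from 147 to 197 normalized counts in WT control (median 156) and from 221 to 422 in APP control (median 382) without overlap (log2 fold change 1.07, SE 0.17, DESeq2 adjusted p = 1.22e-07). Nfe2l2, the factor of the antioxidant response, was called at 0.55. Among inflammasome genes Nlrp3 ranged from 28.1 to 45.5 normalized counts in WT control (median 32.4) and from 63.2 to 146 in APP control (median 97.3), with a log2 fold change of 1.48 (SE 0.21, DESeq2 adjusted p = 2.23e-09), and 3 of 4 Naip genes were called (Naip2 (1.21), Naip5 (1.14) and Naip6 (0.98)), which are close copies of each other. The pore-forming Gsdmd (0.62) and the adaptor Card9 (0.75) were called too. Called enzymes that make or break down eicosanoids included Tbxas1 (1.43), Alox5 (1.14), Hpgds (1.06), Hpgd (0.88) and Ptgs1 (0.61). Called genes of the leukocyte cytoskeleton included Capg (1.46), Myo1f (1.34), Plek (1.19) and Lcp1 (0.73). Anxa3, a calcium-dependent membrane protein, was called at 1.19, and Ang, which encodes the ribonuclease angiogenin, at 1.37.

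A few called genes had low counts and large folds. Olfr111, annotated as an olfactory receptor, ranged from 0 to 5.67 in WT control and 9.03 to 35.2 in APP control (log2 fold change 3.38, SE 0.59, DESeq2 adjusted p = 2.43e-06). Cd200r4 ranged from 0 to 7.56 in WT control and 10.5 to 48.1 in APP control, and Klrb1b, a receptor of the natural killer group, from 0 to 4.73 in WT control and 5.42 to 17 in APP control. The fold changes of these genes (2.98 and 2.45 for the latter) rest on few reads in WT control, some libraries having none, and the size is uncertain. Of genes on no list that are known from astrocytes or other glia, Sdc4 (0.32), Scrg1 (0.48), Smoc1 (0.57) and the urea transporter Slc14a1 (0.78) were called. Smoc1, a secreted matrix protein, ranged from 343 to 472 normalized counts in WT control (median 382) and from 468 to 663 in APP control (median 600).

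**Figure D4:**
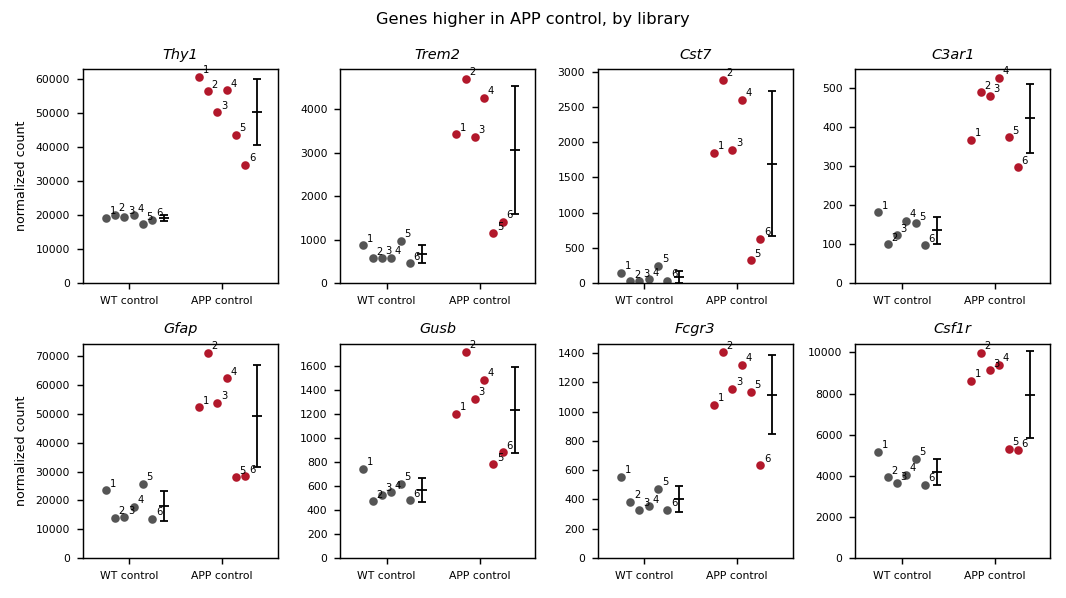
Normalized counts (vertical, from 0) of 8 genes higher in APP control, 1 point per library numbered 1 to 6, WT control in grey and APP control in red, with mean and SD as a bar beside each group. APP control 5 and 6 lie lowest of their group in Thy1, Trem2, Cst7, Gfap, Gusb and Csf1r, and no gene shown has overlapping groups.

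Among the lower genes the immediate early genes stood out by their count. Of 15 members 12 fell with DESeq2 and 7 with edgeR, against 0.827% and 0.201% called lower over all genes, and over all alternatives between 6 and 13 were called. These are transcription factors and effectors that neurons switch on within minutes of activity. Nr4a1 (chr15:101254269-101274795), an orphan nuclear receptor, had 4540, 3826, 3131, 3498, 3583 and 2967 normalized counts in WT control 1 to 6 and 2416, 2425, 1942, 2077, 2152 and 1657 in APP control 1 to 6. The groups did not overlap (log2 fold change -0.77, SE 0.12, DESeq2 adjusted p = 3.3e-08). Nr4a2 (-0.39) and Nr4a3, which is on no list (-0.45), fell too, so all 3 members of the family were called and none of them overlapped. Egr1, a zinc finger factor, ranged from 4064 to 5634 normalized counts in WT control (median 4382) and from 3061 to 3447 in APP control (median 3210), with a log2 fold change of -0.51 (SE 0.08, DESeq2 adjusted p = 1.01e-07) and Fosb, a subunit of AP-1, from 232 to 296 normalized counts in WT control (median 278) and from 166 to 220 in APP control (median 194), with a log2 fold change of -0.51 (SE 0.09, DESeq2 adjusted p = 9.79e-06), both without overlap. Fos ranged from 418 to 800 normalized counts in WT control (median 564) and from 318 to 453 in APP control (median 361), with a log2 fold change of -0.63 (SE 0.15, DESeq2 adjusted p = 0.00137). Arc, which acts on glutamate receptor traffic at synapses, ranged from 3743 to 8033 normalized counts in WT control (median 4920) and from 2187 to 4049 in APP control (median 3097), with the highest value in WT control 1 (log2 fold change -0.75, SE 0.19, DESeq2 adjusted p = 0.00466, edgeR adjusted p = 0.0635). Npas4 (-0.41) and Junb (-0.41, edgeR adjusted p = 0.093) were called as well. Not called were Egr3 (-0.26, adjusted p = 0.104), Btg2 (-0.30, 0.301) and Egr2, which ranged from 62.8 to 139 normalized counts in WT control (median 68.6) and from 50.1 to 102 in APP control (median 83.5).

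Other regulators of signalling were lower as well, all but Dusp1 outside the list. They were chosen after their values had been seen, except Dusp1, Dusp4, Klf10 and Rgs4, which the rule for named genes gave. Of 23 Dusp genes, dual-specificity phosphatases of which some switch off MAP kinases, 4 fell and none rose, with 17 values negative. These were Dusp1 (-0.58), which is one of the 12 immediate early genes counted above, Dusp4 (-0.51), Dusp5 (-0.36) and Dusp8 (-0.15), and edgeR called the first pair but not the last (adjusted p = 0.112 and 0.166). Dusp4 ranged from 482 to 629 normalized counts in WT control (median 588) and from 343 to 465 in APP control (median 414), without overlap (log2 fold change -0.51, SE 0.10, DESeq2 adjusted p = 1.59e-05). Of 6 Spry and Spred genes, further inhibitors of the same pathway, all were negative and Spred3 (-0.25) and Spry2 (-0.22) fell. Etv1 (-0.49) and Etv5 (-0.32), ETS factors that lie downstream of MAP kinase, were the 2 of 5 Etv genes called. The CREB family member Crem (-0.28), the kinase Sik1 (-0.43) and Klf10 (-0.39) also fell. Of these, edgeR called Spred3, Etv5 and Klf10 and did not call Spry2, Etv1, Crem and Sik1. Rgs4, which shortens G protein signals, ranged from 5351 to 6868 normalized counts in WT control (median 6375) and from 3658 to 4998 in APP control (median 4652), with a log2 fold change of -0.47 (SE 0.09, DESeq2 adjusted p = 1.15e-05).

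The cAMP response element, to which CREB binds, was searched in the same promoter windows as TGACGTCA, which reads the same on both strands and does not contain the AP-1 letters TGACTCA. It occurred in 8 of 160 windows of lower genes (5%), in 1.04% of the windows of higher genes, 2.68% of those of all genes tested and 1.79% of all windows. The AP-1 letters, on either strand, occurred in 3.12%, 5.73%, 3.97% and 5.2% in the same order. Genes with the element included Dusp1 and Scg2, which are shown with the match in capitals. In the immediate early list 2 of 15 windows held the element (13.3%), those of Dusp1 and of Btg2, which was not called. Windows for Nr4a1, Fos and Fosb held no such letters.
Dusp1 (chr17:26508423-26508722, minus strand): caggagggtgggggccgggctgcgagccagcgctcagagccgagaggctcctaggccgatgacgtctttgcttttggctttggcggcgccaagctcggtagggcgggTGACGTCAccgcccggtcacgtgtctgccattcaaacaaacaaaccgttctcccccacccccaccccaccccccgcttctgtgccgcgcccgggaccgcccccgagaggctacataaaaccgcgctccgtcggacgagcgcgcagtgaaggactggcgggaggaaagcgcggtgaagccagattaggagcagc
Scg2 (chr1:79439977-79440276, minus strand): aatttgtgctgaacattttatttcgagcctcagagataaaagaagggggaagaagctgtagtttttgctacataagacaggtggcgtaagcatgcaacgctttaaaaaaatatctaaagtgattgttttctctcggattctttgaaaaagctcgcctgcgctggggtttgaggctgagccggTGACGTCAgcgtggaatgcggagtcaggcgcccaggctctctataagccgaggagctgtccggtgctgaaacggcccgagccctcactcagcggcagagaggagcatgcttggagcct

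Secreted neuronal factors were lower in part. Of 16 members 4 fell and none rose, or 2 fell without any 1 of WT control 6, APP control 2 and APP control 3 (median -0.28). Scg2, a granin of dense-core vesicles, ranged from 4839 to 6605 normalized counts in WT control (median 5904) and from 4151 to 5083 in APP control (median 4386), with a log2 fold change of -0.38 (SE 0.08, DESeq2 adjusted p = 7.75e-05), and Vgf, a precursor of several peptides, ranged from 4605 to 6381 normalized counts in WT control (median 6007) and from 3587 to 4783 in APP control (median 4481), with a log2 fold change of -0.43 (SE 0.10, DESeq2 adjusted p = 0.000775). In both the groups overlapped through a single WT library, WT control 3 for Scg2 and WT control 5 for Vgf. Bdnf, a neurotrophin, was called at -0.40 and Tac1, the substance P precursor, at -0.35, but not with edgeR (adjusted p = 0.135 and 0.0863). Sst (-0.31, adjusted p = 0.152) and Npy (-0.37, 0.0867) were not called. Of 13 interneuron genes 12 were negative and 2 fell, Tac1 and Gad1, the enzyme that makes GABA. That count was 4 without WT control 5 or APP control 1, and 1 without any 1 of WT control 6, APP control 2 and APP control 3. Gad1 ranged from 9377 to 11762 normalized counts in WT control (median 11364) and from 7900 to 10470 in APP control (median 8733) (log2 fold change -0.30, SE 0.08, DESeq2 adjusted p = 0.00647, edgeR adjusted p = 0.061). On no list, and named after their values were seen, Pnoc (-0.52), the nociceptin precursor, Crhbp (-0.41), which binds corticotropin-releasing hormone, and Dlx1 (-0.20), a factor of forebrain interneurons, fell as well, and of these edgeR called Crhbp.

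Few synaptic and channel genes were called, and most of their values were small and negative. All 20 genes of glutamate receptors and the postsynaptic density were negative (median -0.13) and none was called by either test (0 to 3 over all alternatives). All 15 of GABA receptors and the inhibitory synapse were negative (-0.15), of which Gabrb2 (-0.32) and Gphn (-0.15), the scaffold gephyrin, fell with DESeq2 at the edge of the threshold (adjusted p = 0.0462 and 0.0464) and were not called by edgeR. Both calls were lost without any 1 of WT control 2, 3, 4 and 6 and APP control 2 to 5, and 1 of them without WT control 5 or APP control 1. All 23 voltage-gated channel genes were negative (-0.13), and 1 fell, but not with edgeR (2 without WT control 5 or APP control 1, and 3 without APP control 6). These medians stand beside -0.01 for all genes. Of 19 presynaptic genes 17 were negative, and the single call went the other way. Rims1, a scaffold of the active zone, ranged from 4467 to 5716 normalized counts in WT control (median 5195) and from 6243 to 7481 in APP control (median 6758), without overlap (log2 fold change 0.40, SE 0.07, DESeq2 adjusted p = 6.81e-06). Of 14 pan-neuronal genes Thy1, whose promoter the transgenes carry, was the 1 called. Of 16 clock genes Arntl, the partner of CLOCK, fell (-0.27, edgeR adjusted p = 0.0538) and the other 15 were not called.

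The lower gene with the smallest p was on no list. Cntnap5b, a neurexin-related adhesion protein, had 461, 524, 512, 528, 535 and 520 normalized counts in WT control 1 to 6 and 371, 304, 333, 407, 371 and 367 in APP control 1 to 6, and the groups did not overlap (log2 fold change -0.51, SE 0.08, DESeq2 adjusted p = 1.14e-08). Lrrc4c, the netrin-G1 ligand of excitatory synapses, ranged from 2651 to 3776 normalized counts in WT control (median 3346) and from 1938 to 2662 in APP control (median 2218), with a log2 fold change of -0.56 (SE 0.10, DESeq2 adjusted p = 1.46e-06), overlapping through WT control 1 and APP control 6. Ndst4, a heparan sulfate sulfotransferase, ranged from 1761 to 3158 normalized counts in WT control (median 2259) and from 1245 to 1907 in APP control (median 1448), with a log2 fold change of -0.60 (SE 0.14, DESeq2 adjusted p = 0.000738), and the cadherin Cdh6 from 235 to 305 normalized counts in WT control (median 257) and from 138 to 223 in APP control (median 184), with a log2 fold change of -0.54 (SE 0.12, DESeq2 adjusted p = 0.000616). Lonrf1, a ring finger protein, ranged from 1283 to 1380 normalized counts in WT control (median 1346) and from 1093 to 1201 in APP control (median 1162) without overlap (log2 fold change -0.20, SE 0.04, DESeq2 adjusted p = 0.000182). Seen after their values, further lower genes of synapse and axon were Stxbp5l (-0.41), the sodium-calcium exchanger Slc8a1 (-0.40), Slitrk1 (-0.28), Adgrl3 (-0.28), Nrcam (-0.22) and Ank3 (-0.19), the ankyrin of the axon initial segment. Of these, edgeR called Slc8a1, Slitrk1 and Adgrl3. The disease genes Lrrk2 (-0.29) and Htt (-0.16) were called with DESeq2 and not with edgeR (adjusted p = 0.121 and 0.161). The lower genes had a median exonic length of 6122 bases against 3904 for the higher and 3749 for all genes tested. Whether length has a part in these differences was not tested.

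**Figure D5:**
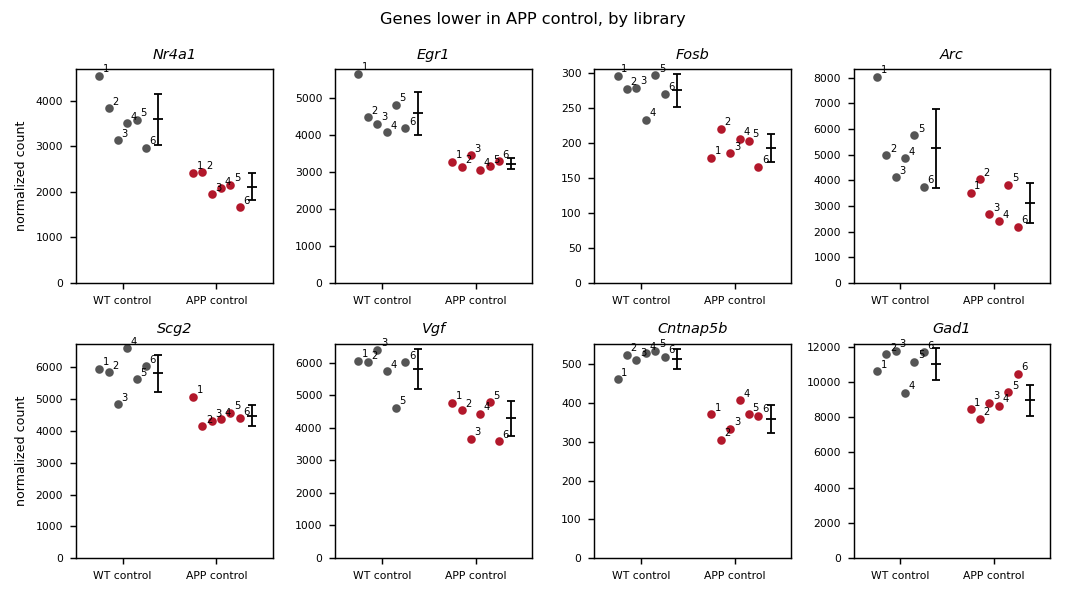
Normalized counts (vertical, from 0) of 8 genes lower in APP control, 1 point per library numbered 1 to 6, WT control in grey and APP control in red, with mean and SD as a bar beside each group. The groups do not overlap in Nr4a1, Egr1, Fosb and Cntnap5b and overlap in Arc, Scg2, Vgf and Gad1.

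The strand of the counting was not given in the sources used here, and these genes named above share exonic positions with another annotated gene, so that their counts may hold reads of it: Adgrl3, Ang, Anxa3, App, Arntl, Bdnf, Card9, Cebpa, Ch25h, Crem, Csf1r, Ctsb, Ctsd, Ctsl, Cx3cr1, Dlx1, Dusp1, Dusp5, Dusp8, Fcgr2b, Fdft1, Gphn, Gpr65, Gpr84, Grn, Hk3, Il1a, Il1b, Il4ra, Il6ra, Irf5, Junb, Klrb1b, Lcp1, Lyl1, Mlxipl, Ncf1, P2ry12, Plek, Ptgs1, Rpl32, Rps25, Runx1, Slc1a2, Slc8a1, Spp1, Spred3 and Tbxas1.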

How the data were processed

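RNA of the CA1 region was sequenced as single-end reads of 50 nt from TruSeq v2 libraries. Per the submitters' processing notes, FastQC (0.11.5), STAR (2.5.2b) and featureCounts of Subread (1.5.1) were used with the genome mm10. The authors deposited raw read counts per Ensembl gene for each sample, and the strand setting and annotation release were not given in the sources used here. Gene names and positions came from GENCODE M21 on GRCm38, which matched 48349 of 48709 identifiers; 15623 genes had no count in the 12 libraries.

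The 12 libraries were fitted with DESeq2 (1.42.0, R 4.3.3), with the count filter and threshold of the study's methods, group as the only term, unshrunken log2 fold changes and default independent filtering and outlier handling. Adjusted p was not given for 776 genes. The alternatives used edgeR (4.0.16), limma (3.58.1), other filters and scalings, further covariates and fits that left out libraries. The authors also deposited a normalized table on the log2 scale with 18825 genes. It differed from log2(CPM + 1) by 1 profile times a whole number per library for 99.9998% of the difference, and it was used in 1 alternative only. No 2 libraries of a group agreed within sampling noise (smallest chi-square per gene 4.93). The labels number the libraries without naming animals, so p-values measure the spread between these libraries.

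In counts simulated for this comparison (19023 genes tested), DESeq2 recovered 24, 66.7, 92.7 and 98% of genes changed by 0.25, 0.5, 1 and 2 on the log2 scale, and edgeR 10, 61.3, 90.7 and 97.3%. Of the calls 16.1% with DESeq2 and 3.47% with edgeR were false.

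The comparison and the gene lists were chosen with earlier results of these data known. Named genes were the 15 higher and 15 lower with the smallest p, the 10 of each with the largest change above a mean of 50 normalized counts, up to 4 called members per list and direction, and up to 15 higher and 10 lower called genes on no list. Where a list had no called member, the 2 with the highest counts were added. Some genes that the rule gave are not reported here. Other genes named were chosen after their values were seen. Promoter windows were RefSeq's on GRCm38.p6. Figures were drawn with matplotlib (3.10.9) in Python (3.11.15).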

Additional observations from a re-analysis of the deposited data

Results flagged for a closer look

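Of 157 genes given by the rule for named genes, each group of 6 libraries was examined for a library whose distance from the nearest of the others was large against the range of the group. Of 314 groups 20 had such a library. Chance gives about 1 in 20, or 15.7 groups. No explanation was weighed for any of them. WT control 1 stood apart in Cntnap5b (461 normalized counts against 512 to 535 in the other libraries of the group), Hcar2 (56.7 against 11 to 27.3), Cd8a (90.8 against 14.3 to 32.3) and H2-DMb1 (75.6 against 35.3 to 48.8). APP control 2 stood apart in Foxj1 (285 normalized counts against 155 to 198 in the other libraries of the group), Atp6v1a (13411 against 15415 to 16345), Ncf4 (125 against 66.8 to 81.2) and Kdm5d (753 against 1046 to 1165). APP control 5 stood apart in S100a9 (1468 normalized counts against 7.51 to 16.1 in the other libraries of the group), Srgn (412 against 247 to 308), Flt1 (1493 against 1218 to 1314) and Msmo1 (2023 against 2578 to 2857). WT control 5 stood apart in Ttr (1392 normalized counts against 31.4 to 119 in the other libraries of the group) and Vgf (4605 against 5725 to 6381). APP control 1 stood apart in Cttnbp2 (7699 normalized counts against 6609 to 6813 in the other libraries of the group). APP control 3 stood apart in Myh11 (294 normalized counts against 127 to 181 in the other libraries of the group). APP control 6 stood apart in Rps4x (787 normalized counts against 945 to 1032 in the other libraries of the group). WT control 2 stood apart in Ppp1r1b (1301 normalized counts against 1061 to 1149 in the other libraries of the group). WT control 4 stood apart in Nr4a2 (2567 normalized counts against 3062 to 3317 in the other libraries of the group). WT control 6 stood apart in Tac1 (401 normalized counts against 299 to 328 in the other libraries of the group). S100a9 and Ttr had no adjusted p in DESeq2.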

How the results depend on the processing

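The count of 746 called genes was 446 with edgeR, 384 with limma voom, 370 with edgeR and a replicate block, and 1150 without APP control 5 and 6, the last an alternative chosen after seeing the data. Leaving out 1 library at a time gave 528 to 1006. The other alternatives stayed within 1.5 times: 663 for DESeq2 with a replicate block, 744 with TMM size factors (83.7% higher), 728 without a count filter, 668 with at least 20 counts in every library, 736 without independent filtering, 908 with all 19 libraries, 715 with Xist as a covariate, 525 with the adjustment number and 711 on the deposited normalized table (89% higher).

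The replicate numbers of the titles were not treated as pairs. Deviations of same-numbered libraries from their group means correlated between -0.142 and 0.358 over 13987 genes, below 0.1 for 3 of the 6 numbers. Of the 6 WT control libraries, 2 correlated best with the APP control library of their own number. With the replicate block, 540 of the 663 calls were among the 746.

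Of 118 named genes that were called, 82 stayed past the threshold in all 26 alternatives in which they could be fitted, none changed direction, and 15 missed it in 10 or more: Gphn, Cd163, Lpl, Pf4, Nsdhl, Myh11, Gabrb2, Bdnf, Fth1, Cx3cl1, Fdft1, Col5a3, Hmox1, Hk3 and Tac1. How depth limits the calls of genes with low counts was not tested.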
